A study of Mus musculus with 24 samples.

Results

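Islets of C57BL6/J (BL6) mice on a high-fat diet containing pioglitazone were compared with islets of BL6 mice on the same diet without it. The comparison takes in 8 of the 24 arrays of the series, chosen by their sample titles, with 4 mice in each of its 2 groups and 1 array per mouse. Genes were measured on single-colour Agilent arrays, and a level below is the log2 intensity of a probe minus the log2 of that array's 75th percentile, so that a level of 1 lies 2-fold above the percentile. Every p below comes from a limma model of all genes, with Benjamini-Hochberg adjustment over 22968 genes where it is called adjusted, and SE is the standard error of that model. Where 1 gene had several probes, the brightest was used. The number of arrays limits the precision of each value.

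All mice were male and entered at 8 weeks of age. The pioglitazone group ate a diet with 42% of kcal from fat and 140 mg pioglitazone per kg diet, the high-fat group ate the 42% diet alone, and a chow group, used below only as a baseline, ate a diet with 18% of kcal from fat. The same 3 diets were given to mice of the C57BLKs/J (BLKS) strain, with 4 mice a group. The sample labels state 12 weeks of feeding and the series text states 16 weeks. Pioglitazone was given in the food, so the islets are those of animals treated as a whole, and the arrays do not separate effects on islet cells from effects of a changed metabolism.

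Pioglitazone belongs to the thiazolidinediones, insulin-sensitising drugs that activate the nuclear receptor PPAR-gamma. PPAR-gamma pairs with an RXR receptor on direct repeats of the core sequence AGGTCA and switches on genes of fatty acid uptake, binding and storage, most strongly in adipocytes but also in macrophages and capillary endothelium. Islets are small endocrine organs of insulin-producing beta cells, glucagon-producing alpha cells and rarer cell types, threaded by a dense capillary bed, so an array of whole islets reads all of these cells at once.

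Of 22968 genes tested, 44 passed an adjusted p of 0.05 (0.192% of genes), with 23 higher with pioglitazone (0.100%) and 21 lower (0.0914%). Among the genes that rose were the lipid-handling genes Cd36, Fabp4 and Rbp7, which PPAR-gamma is known to activate, at 2.65-fold to 5.47-fold. Among the genes that fell were the activity-regulated transcription factor gene Npas4, the G protein regulator gene Rgs2 and the neuropeptide precursor gene Vgf. At an unadjusted p under 0.05 there were 1070 higher genes (4.66%) and 1310 lower genes (5.70%), and the median log2 change of all genes was -0.00. The groups did not overlap for 751 genes (3.27%), of which 398 were higher (1.73%) and 353 lower (1.54%), and 43 of the 44 were among them. With 1 array left out at a time, 14 of the 44 genes passed in all 8 fits.

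These calls rest on the spread estimated over all 24 arrays. With only the 8 arrays of the comparison in the model, 0 genes passed in limma, 1170 had an unadjusted p under 0.05, and the smallest adjusted p was 0.0853. All 4 high-fat arrays shared slide 1 with the chow arrays, whereas 3 of the pioglitazone arrays lay on slide 2 and the fourth on slide 4, so slide and diet cannot be told apart in BL6 islets. Each mouse is a separate sample in the labels, and nothing states how islets were batched for isolation.

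The arrays measured islet RNA throughout. Ins2 lay between 8.92 and 9.76 in the pioglitazone islets and between 9.15 and 9.46 in the high-fat islets. The 75th percentile of intensity was 217.9 to 372.0 on the pioglitazone arrays and 265.2 to 313.1 on the high-fat arrays. Marker genes of lymphocytes, a cell type that is not part of the islet, were high on 3 arrays: pioglitazone mice 2 and 3, at list means of -0.44 and 2.57, and high-fat mouse 4, at 1.42. The remaining 5 arrays lay between -3.39 and -3.02. Without these 3 arrays 14 genes passed, 8 of them among the 44, with 10 higher and 4 lower.

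Cd36 encodes a membrane receptor that takes up long-chain fatty acids and oxidised lipoproteins (probe on mm9 chromosome 5, 17288600 to 17288659). Its level in pioglitazone mice 1 to 4 was -0.27, -0.18, 0.31 and 0.15, against -3.13, -2.48, -2.31 and -1.87 in high-fat mice 1 to 4. All 4 pioglitazone islets stood well above every high-fat islet, and the closest pair of values was more than 1 log2 unit apart. The increase was 2.45 ± 0.31 (SE), or 5.47-fold (adjusted p = 0.000803, limma), the largest increase among the 44 genes. The chow islets lay at -3.13 to -2.61, beside the high-fat islets. Cd36 passed in all 8 fits that left out 1 array, and also without the 3 arrays of high lymphocyte markers.

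Fabp4 encodes an intracellular fatty acid binding protein of adipocytes, macrophages and capillary endothelial cells (mm9 chromosome 3, 10204452 to 10204511). Its level was 3.96, 3.39, 3.75 and 4.16 in the pioglitazone islets and 1.56, 1.88, 2.00 and 1.99 in the high-fat islets. The groups did not overlap, and the increase was 1.96 ± 0.23 (SE), or 3.89-fold (adjusted p = 0.000293). Chow islets again lay beside the high-fat islets, at 1.06 to 2.17.

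Rbp7 encodes a retinol-binding protein of the same family of small lipid carriers as Fabp4 (mm9 chromosome 4, 148823823 to 148823882). The level was 4.50, 3.93, 3.58 and 4.27 in the pioglitazone islets and 2.31, 3.01, 2.67 and 2.67 in the high-fat islets. Every pioglitazone islet was above every high-fat islet, and the increase was 1.40 ± 0.19 (SE), or 2.65-fold (adjusted p = 0.00147). Chow islets lay at 2.23 to 2.85. Fabp4 and Rbp7 also passed in all 8 of those fits.

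**Figure D1:**
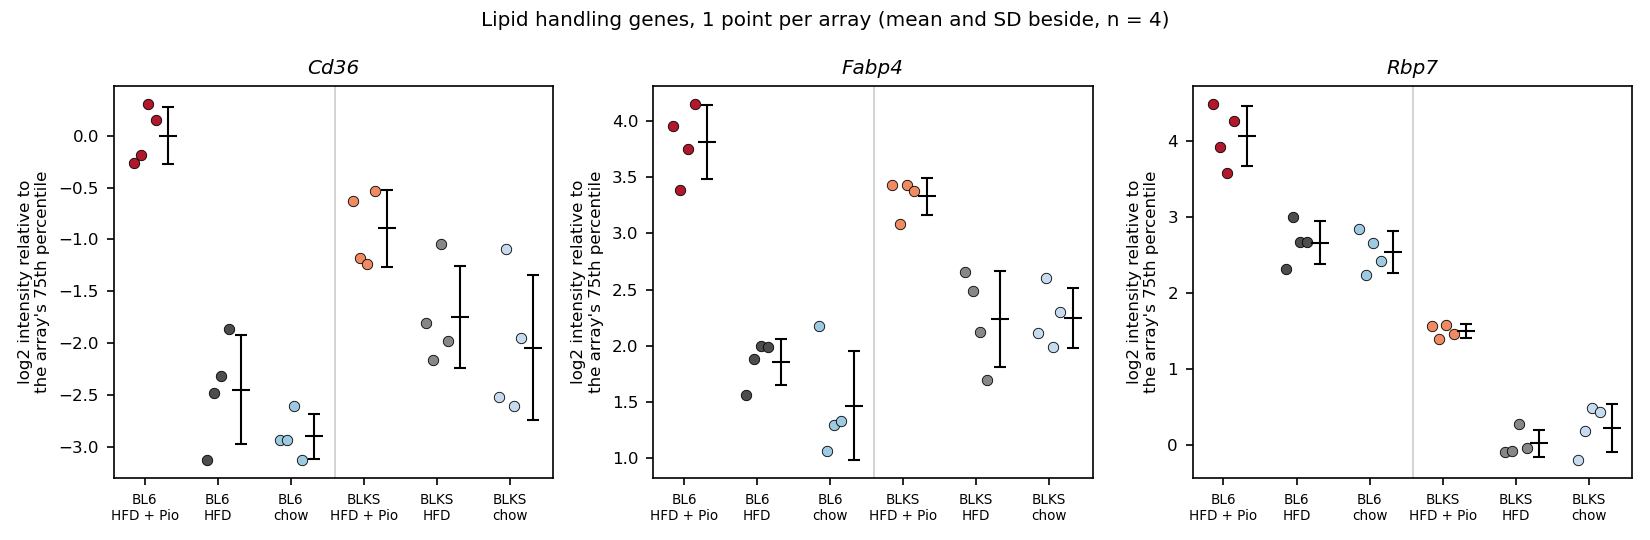
Level (log2 intensity relative to the 75th percentile of the array) of Cd36, Fabp4 and Rbp7 on every array, grouped by strain and diet, with the mean and SD of the 4 arrays beside the points. In BL6 islets the pioglitazone arrays lie above all high-fat and chow arrays for the 3 genes, and in BLKS islets the pioglitazone arrays lie above the high-fat arrays for Fabp4 and Rbp7.

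The promoter sequences of these genes are shown because the drug acts through a receptor with a known binding sequence. The 250 bases before the annotated start are given 5′ to 3′ on the gene's strand, from RefSeq on GRCm38.p6, at chr5:17835897-17836146 (minus strand) for Cd36 and chr4:149454969-149455218 (minus strand) for Rbp7. Capitals mark the core AGGTCA on either strand. Fabp4 is named only.
Cd36: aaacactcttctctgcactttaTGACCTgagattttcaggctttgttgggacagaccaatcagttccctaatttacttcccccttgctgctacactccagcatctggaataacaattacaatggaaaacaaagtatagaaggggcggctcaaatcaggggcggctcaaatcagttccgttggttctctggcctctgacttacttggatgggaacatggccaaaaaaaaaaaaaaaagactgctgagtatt
Rbp7: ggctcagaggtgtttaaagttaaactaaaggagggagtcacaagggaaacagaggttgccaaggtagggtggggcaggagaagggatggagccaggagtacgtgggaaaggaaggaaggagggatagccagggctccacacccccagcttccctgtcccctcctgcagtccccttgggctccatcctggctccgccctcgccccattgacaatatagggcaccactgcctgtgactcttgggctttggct
Cd36 held 1 core, read on the other strand as TGACCT, with its first base at position -228 from the start, and Rbp7 held 0.

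Windows running from 250 bases before to 50 bases after the start were available for 17 of the 23 genes that rose. The core AGGTCA, on either strand, was in windows of 6 of these 17 genes, Cd36, Mfap2, Upp1, Cpm, Arhgef2 and Gm826, that is in 7 of their 25 windows. It was in 16.3% of all 32851 windows. The full direct repeat, AGGTCA and AGGTCA again with any 1 base between, was in 0 of the 25 windows and in 0.0396% of all windows. A match describes letters in this window and is not a binding site, and PPAR-gamma sites often lie farther from the start than the window reaches.

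Of 42 measured members of a list of PPAR-gamma targets, 3 rose and 0 fell (0.100% of all genes rose), with a median log2 change of 0.11 and 31 positive values, against a median of -0.00 and 49.5% positive values over all genes. The mean of the list on an array was 0.07 to 0.33 with pioglitazone and -0.09 to 0.06 on high-fat diet. The groups were thus narrowly apart. This mean includes the 3 called genes Cd36, Fabp4 and Rbp7, so it is not a reading separate from them. Pdk4, which encodes a kinase that turns down glucose oxidation, was the other member whose groups did not overlap, at 0.61 ± 0.23 (SE, adjusted p = 0.354), with 1.25 to 1.92 in the pioglitazone islets and 0.14 to 1.20 in the high-fat islets. Without pioglitazone mouse 4 there were 25 positive values and the median was 0.06, and without the 3 arrays of high lymphocyte markers 26 and 0.06. The list was drawn up with earlier results of these data known.

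Other members had these differences. Plin2, which coats lipid droplets, differed by -0.15, Angptl4, an inhibitor of lipoprotein lipase, by 0.07, Lpl, the lipase itself, by 0.15, and Gpihbp1, which anchors that lipase on capillaries, by 0.17. None of these passed. Fabp5, a close relative of Fabp4, differed by 0.79. It was 4.85 in pioglitazone mouse 3, the array with the highest lymphocyte and macrophage markers, and 1.62 to 1.87 in the other pioglitazone islets, against 1.06 to 2.20 in the high-fat islets. Klf15, a transcription factor of lipid and amino acid metabolism, was the lowest of the list at -0.55 (adjusted p = 0.387).

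The receptor and its partners were not called. Pparg was 1.68, 1.93, 1.29 and 1.82 in the pioglitazone islets and 1.80, 2.06, 1.86 and 1.48 in the high-fat islets, overlapping groups with a difference of -0.12 ± 0.15 (SE, adjusted p = 0.820). Of 20 measured receptors, RXR partners and coregulators, 0 passed, and the median was 0.03. The lowest was Ppargc1a, a coactivator of mitochondrial gene programs, at -0.74 ± 0.27 (SE, adjusted p = 0.328), with -0.36 to 0.37 in the pioglitazone islets and -0.02 to 1.15 in the high-fat islets. The coactivator gene Crebbp did not overlap between groups, at 6.25 to 6.48 with pioglitazone and 6.52 to 6.69 on high-fat diet, yet its difference was only -0.23 (adjusted p = 0.304).

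Fatty acid oxidation genes, many of which are PPAR-alpha targets in liver, showed 0 calls among 29 measured members and a median of -0.01. The auxiliary enzymes Decr1 and Eci1, which let unsaturated fatty acids enter beta-oxidation, differed by 0.24 and 0.16, and the acyl-CoA thioesterase gene Acot2 by 0.50. A second probe for Decr1 differed by -0.18. Genes of cholesterol and fatty acid synthesis showed 0 calls among 31 members and a median of -0.09, and 5 had an unadjusted p under 0.05, all lower, where 5.70% of all genes were lower at that p. With 1 array left out that number was 3 to 10 (10 without high-fat mouse 4, 3 without pioglitazone mouse 3). The sterol enzyme gene Cyp51 was -0.77 to -0.49 with pioglitazone and -0.36 to 0.05 on high-fat diet (difference -0.54, adjusted p = 0.188), and Lss, which closes the sterol rings, differed by -0.43 (adjusted p = 0.175). Both had groups that did not overlap, and both were lower in BLKS islets too, by -0.29 and -0.31, without passing.

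Cd36 and Fabp4 are expressed in capillary endothelium, fat cells and macrophages, and bulk islets cannot tell more cells of a type from more RNA per cell. Endothelial markers had 0 calls among 22 measured members and a median of -0.02, and the list mean was 1.05 to 1.55 with pioglitazone and 1.07 to 1.43 on high-fat diet. Plvap and Emcn, which mark fenestrated and venous capillaries, differed by -0.31 and -0.53, and Sox17, an arterial transcription factor gene, by 0.65, none passing. With the endothelial mean as a covariate 48 genes passed, and Cd36, Fabp4 and Rbp7 were among them.

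Adipocyte RNA was near the detection limit on these arrays. Adipoq, Lep, Plin1, Adrb3, Car3 and Ucp1 were well above background on 0 of the 8 arrays, Cfd on 1, Cidec on 2 (1 with pioglitazone and 1 on high-fat diet) and Retn on 4 (2 and 2). Thrsp, which lipogenic tissues other than fat also express, was detected on all 8 and differed by -0.36. Macrophage markers had 0 calls among 23 members and a median of 0.43. That median was -0.06 without pioglitazone mouse 3, whose list mean was 2.33 where the other pioglitazone islets lay at 0.59 to 0.99 and the high-fat islets at 0.40 to 1.30. Cx3cr1, Cd14 and Trem2, genes of resident macrophages, differed by 0.66, 0.60 and 0.50 with groups that did not overlap, and none passed. Of all genes, 1.73% were higher with groups that did not overlap. A second probe for Cx3cr1 differed by 0.48. Cd36 in pioglitazone mouse 3 was the highest of its group, at 0.31, and Rbp7 in that mouse was the lowest of its group, at 3.58. The part of these cells in the result was not tested beyond these values.

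Among genes outside lipid handling, Lrtm2, which encodes a leucine-rich repeat membrane protein (mm9 chromosome 6, 119265174 to 119265233), had the smallest adjusted p of the genes that rose. Its level was -1.58, -1.53, -1.92 and -1.79 with pioglitazone and -3.02, -3.19, -2.80 and -2.71 on high-fat diet. The groups were apart and narrow, and the increase was 1.23 ± 0.13 (SE), or 2.34-fold (adjusted p = 0.000126). Chow islets lay at -2.18 to -1.87. The high-fat islets were 0.91 below the chow islets (adjusted p = 0.00657), in a comparison that uses the same 4 high-fat arrays. The carboxypeptidase M gene Cpm, whose product trims basic residues from peptides at the cell surface, was likewise lowest on high-fat diet, with 1.19 to 1.37 with pioglitazone, 0.60 to 0.89 on high-fat diet and 1.19 to 1.51 on chow. It rose by 0.57 with pioglitazone (adjusted p = 0.0306), and high-fat islets were 0.63 below chow (adjusted p = 0.0275).

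Edn2, the gene of the vasoconstrictor peptide endothelin 2, was -2.45, -2.63, -2.58 and -2.79 with pioglitazone and -5.02, -3.95, -3.38 and -3.49 on high-fat diet. It rose by 1.34 ± 0.26 (SE, adjusted p = 0.0306), and its probe was well above background on 4 pioglitazone arrays and 3 high-fat arrays. Abcc3, which encodes an exporter of bile acids and drug conjugates, was -0.68, 0.03, -0.71 and -0.29 with pioglitazone and -1.45, -1.16, -1.26 and -1.92 on high-fat diet. It rose by 1.03 ± 0.19 (SE), or 2.04-fold (adjusted p = 0.0211). It was the 1 called gene of 10 measured bile acid and xenobiotic transporters, where 0.100% of all genes were called higher. In the same list Abcb4, a phospholipid exporter, differed by -0.45 with groups that did not overlap (adjusted p = 0.110), and Abcb1b by -0.81 (adjusted p = 0.458).

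The remaining increases were smaller. Mfap2, of extracellular microfibrils, rose by 0.95, although a second probe for it differed by 0.16. Slc35d2, a nucleotide sugar transporter gene, rose by 0.78 (second probe 0.26), and Rcor2, a corepressor that works with the demethylase LSD1, by 0.78. Upp1, of uridine salvage, rose by 0.72, and its second probe was not well above background on any of the 8 arrays. Genes tied to the cytoskeleton and cell contacts were Specc1 at 0.60, Arhgap8 at 0.50, Arhgef2 at 0.45 and Efnb1, the gene of the ligand ephrin-B1, at 0.45. The ubiquitin ligase gene March7 (now Marchf7) rose by 0.51, 1700001C02Rik (now Fam166c) by 0.98, Gm826 by 0.94, Ankrd34c by 1.39 (well above background on 2 of 4 high-fat arrays) and 1700086L19Rik by 0.68. The olfactory receptor gene Olfr1312 was above background on 2 pioglitazone arrays and 0 high-fat arrays, and was at least 1.11-fold higher. Names on chromosome 1, ENSMUST00000057543 (at least 1.23-fold higher) and a region probe that rose by 2.16 (well above background on 3 pioglitazone arrays and 1 high-fat array), lie at the same locus and were dim.

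**Figure D2:**
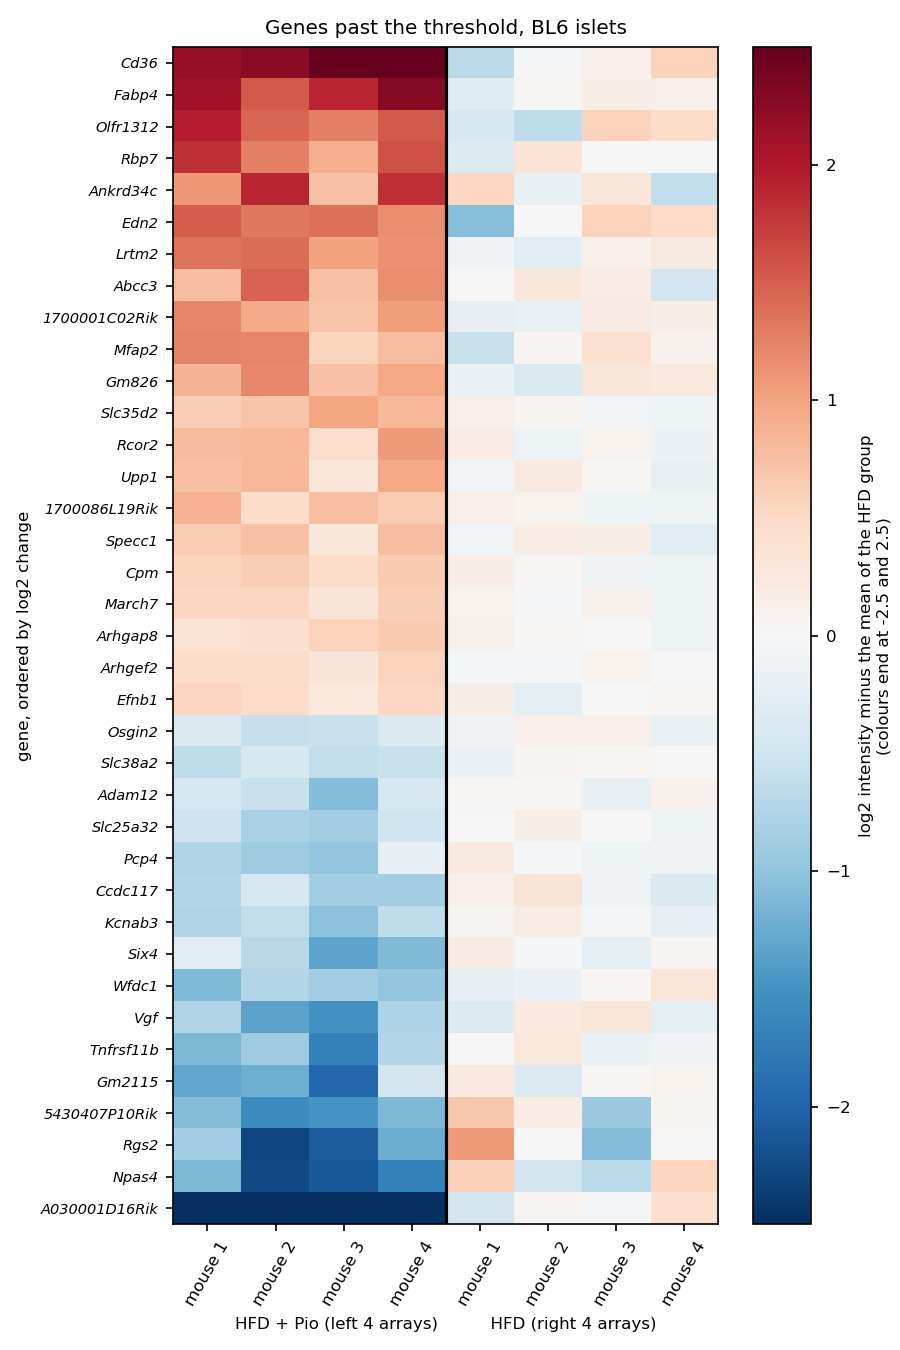
Log2 intensity minus the mean of the high-fat group for 37 of the 44 genes past the threshold (21 higher, 16 lower; names made only of coordinates, accessions or probe numbers are not drawn), with the 4 pioglitazone arrays on the left and the 4 high-fat arrays on the right. The lipid genes Cd36 and Fabp4 head the plot, and A030001D16Rik at the foot is below the end of the colour scale on all 4 pioglitazone arrays.

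Npas4, a transcription factor gene switched on by membrane depolarisation and calcium entry in neurons and beta cells (mm9 chromosome 19, 4984356 to 4984415), had the largest decrease among called genes well above background in both groups. Its level was -0.25, -1.39, -1.25 and -0.82 with pioglitazone and 1.45, 0.40, 0.20 and 1.41 on high-fat diet. The groups did not overlap, and the decrease was -1.79 ± 0.29 (SE), or 3.47-fold lower (adjusted p = 0.00872). Chow islets lay at -1.34 to -0.17, overlapping the pioglitazone islets, and high-fat against chow differed by 1.48 (adjusted p = 0.0777, same high-fat arrays). Npas4 passed in all 8 fits with 1 array left out. Without the 3 arrays of high lymphocyte markers it differed by -1.22 (adjusted p = 0.207, where the lowest and highest over its alternatives were 0.00330 and 0.686).

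A dim probe of a transcribed region close to Npas4 (mm9 chromosome 19, 4994396 to 4994455) was above background on 0 pioglitazone arrays, 4 high-fat arrays and 0 chow arrays. It was at least 1.91-fold lower with pioglitazone (adjusted p = 0.00342). Whether it reads the same transcript was not determined here, so Npas4 and this probe may not be separate findings.

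Rgs2 encodes a GTPase activator that shortens signalling from G protein-coupled receptors (mm9 chromosome 1, 145848830 to 145848889). Its level was 5.13, 3.71, 3.92 and 4.76 with pioglitazone and 7.06, 6.00, 4.91 and 6.01 on high-fat diet. It was the 1 called gene whose groups overlapped, since pioglitazone mouse 1 lay above high-fat mouse 3. The decrease was -1.62 ± 0.33 (SE), or 3.07-fold lower (adjusted p = 0.0478), and a second probe differed by -1.86. Chow islets lay at 5.44 to 5.96. Rgs2 passed in 2 of the 8 fits with 1 array left out: without high-fat mouse 3 and without pioglitazone mouse 1. Its adjusted p was 0.0550 to 0.138 in the other 6.

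Vgf encodes a secreted precursor of neuroendocrine peptides stored with insulin (mm9 chromosome 5, 137509153 to 137509212). Its level was 2.41, 1.83, 1.65 and 2.40 with pioglitazone and 2.83, 3.42, 3.48 and 2.94 on high-fat diet. The groups did not overlap, and the decrease was -1.09 ± 0.21 (SE), or 2.13-fold lower (adjusted p = 0.0306). It passed in 4 of the 8 fits with 1 array left out. Its adjusted p was 0.113 without high-fat mouse 2, 0.0905 without high-fat mouse 3, 0.0967 without pioglitazone mouse 2 and 0.0791 without pioglitazone mouse 3. It was the 1 call among 33 granule and exocytosis genes, where 0.0914% of all genes were called lower. Of these 33 genes, 28 had negative values (median -0.13), where 49.5% of all genes had positive values. Without pioglitazone mouse 3 there were 18 negative values (median -0.03). Unc13a, which primes granules for release, differed by -0.48 with groups that did not overlap (adjusted p = 0.132).

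Npas4 was likewise the 1 call among 26 activity-regulated and immediate early genes (0.0914% of all genes were called lower). The median of this list was -0.03. Without pioglitazone mouse 3 the median was -0.21, with 18 of 26 values negative, and with 1 array left out it was -0.21 to 0.05. Crem, a cAMP-responsive transcription factor gene, was 0.62 to 1.30 with pioglitazone and 1.33 to 1.86 on high-fat diet, a difference of -0.52 (adjusted p = 0.331). Bdnf differed by -0.61 (adjusted p = 0.373) and Nr4a2 by -0.49 (adjusted p = 0.458). The rapid early genes went no single way, with Fos at -0.03, Fosb at -0.02, Egr1 at 0.35 and Arc at 0.50. With all arrays the list had 11 positive and 15 negative values.

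Promoters of Npas4 and Rgs2 are printed because both genes are known to be induced through cAMP and calcium signalling, whose factor CREB binds TGACGTCA or its shorter form TGACG, which is contained in it. They are the 250 bases before the start, 5′ to 3′ on the gene's strand, from RefSeq on GRCm38.p6, at chr19:4989972-4990221 (minus strand) for Npas4 and chr1:144004150-144004399 (minus strand) for Rgs2. Capitals mark TGACG on either strand, and Vgf is named only.
Npas4: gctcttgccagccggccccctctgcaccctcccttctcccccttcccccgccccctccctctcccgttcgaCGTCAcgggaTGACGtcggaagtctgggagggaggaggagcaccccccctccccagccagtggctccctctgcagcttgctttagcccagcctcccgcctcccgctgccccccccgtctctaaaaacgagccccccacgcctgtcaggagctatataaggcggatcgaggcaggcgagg
Rgs2: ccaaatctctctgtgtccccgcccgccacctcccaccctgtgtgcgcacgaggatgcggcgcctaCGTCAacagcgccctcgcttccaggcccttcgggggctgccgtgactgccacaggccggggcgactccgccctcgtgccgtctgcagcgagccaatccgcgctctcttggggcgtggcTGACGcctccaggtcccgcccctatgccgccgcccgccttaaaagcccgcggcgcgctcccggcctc
Both held 2 copies of TGACG and 0 of the full TGACGTCA, and 5.01% of all windows held 2 or more copies. Windows were available for 7 of the 21 genes that fell, and those of Npas4, Rgs2 and Slc38a2 held TGACG, which was in 20.8% of all windows.

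A030001D16Rik, a transcript known by its clone name, had the largest difference among genes past the threshold. Its level was -4.35, -6.79, -5.04 and -5.48 with pioglitazone, where the probe was above background on 0 of 4 arrays, and -1.47, -0.94, -1.04 and -0.58 on high-fat diet, where it was above background on 4 of 4. It was at least 12.6-fold lower with pioglitazone, counting the detection limit of the arrays as its level there (adjusted p = 0.000126). Chow islets lay at -6.47 to -3.80, and high-fat islets were above them by 3.67 (adjusted p = 0.00264, same high-fat arrays). Genes with larger differences that did not pass, such as BC019489 at 4.60 (adjusted p = 0.612), had a wide spread between arrays.

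**Figure D3:**
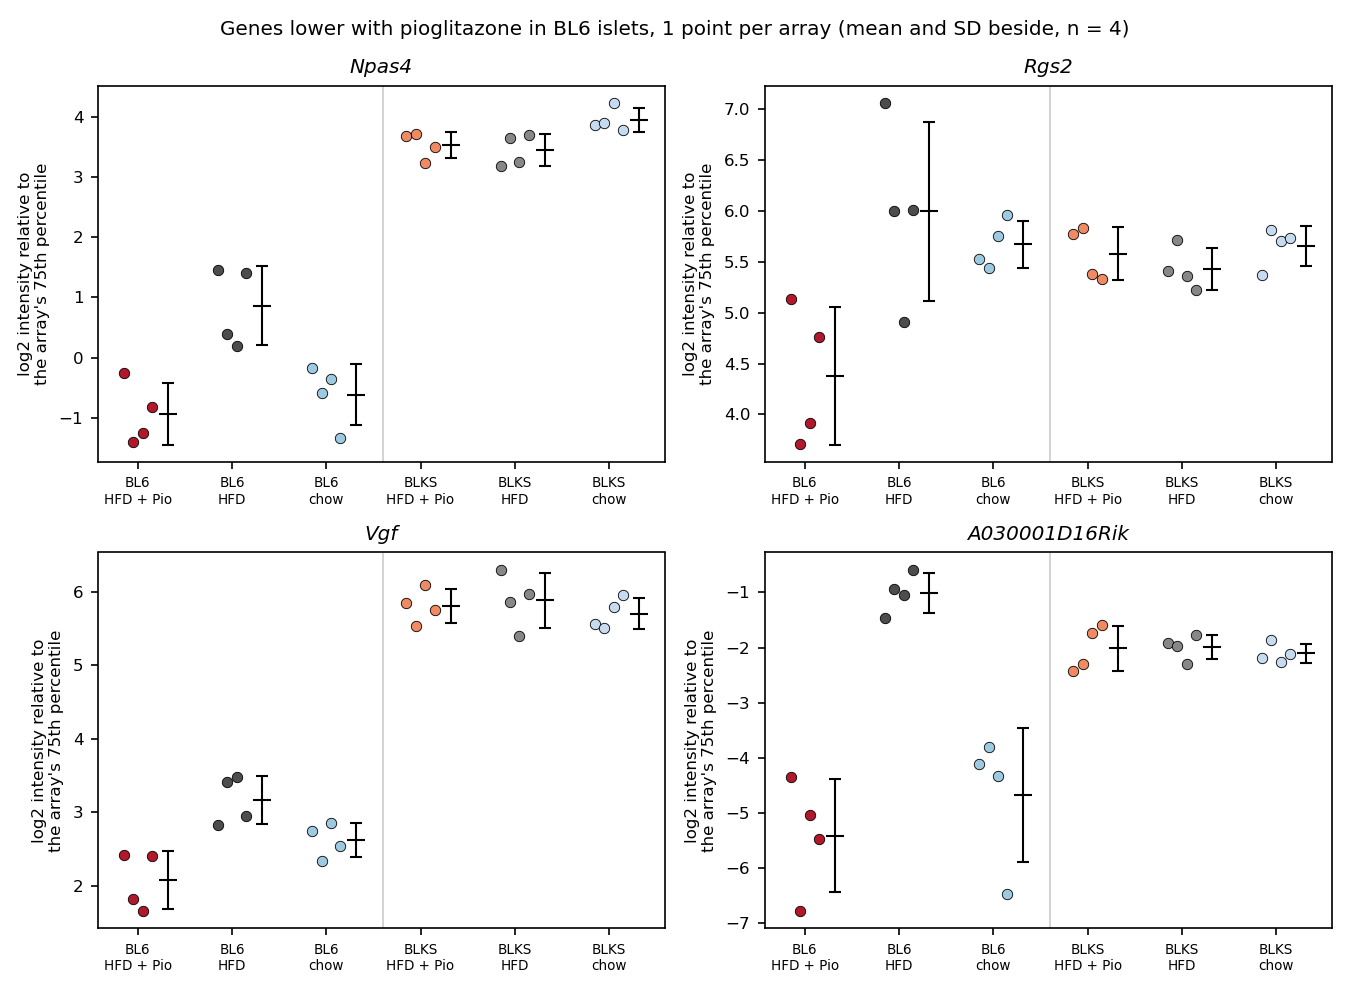
Level (log2 intensity relative to the 75th percentile of the array) of Npas4, Rgs2, Vgf and A030001D16Rik on every array, grouped by strain and diet, with mean and SD beside the 4 points. In BL6 islets the pioglitazone arrays lie below the high-fat arrays and overlap the chow arrays for Npas4, Vgf and A030001D16Rik, while the BLKS groups overlap each other for Rgs2, Vgf and A030001D16Rik.

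The other decreases covered several functions. Tnfrsf11b, the gene of osteoprotegerin, a decoy receptor for the cytokine RANKL, was -0.49, -0.26, -1.07 and -0.10 with pioglitazone and 0.61, 0.89, 0.45 and 0.54 on high-fat diet. It fell by 1.11 (adjusted p = 0.0478) and was the 1 call among 28 inflammation genes, where 0.0914% of all genes were called lower. The median of the 28 genes was 0.12. Without pioglitazone mouse 3 that median was -0.18, with 21 of 28 values negative. Tnfrsf11b passed in 1 of the 8 fits with 1 array left out, that without pioglitazone mouse 4, and its adjusted p was 0.0648 to 0.172 in the other 7. Kcnab3, a beta subunit of voltage-gated potassium channels, was -0.64 to -0.24 with pioglitazone and 0.17 to 0.57 on high-fat diet. It fell by 0.76 (adjusted p = 0.0231), the 1 call among 25 glucose-sensing and channel genes (median -0.02), against the same 0.0914% of all genes.

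Slc38a2, a neutral amino acid transporter gene induced in amino acid shortage, was 2.79, 3.03, 2.81 and 2.86 with pioglitazone and 3.28, 3.50, 3.48 and 3.45 on high-fat diet, a decrease of -0.55 ± 0.10 (SE, adjusted p = 0.0203). Slc25a32, a mitochondrial carrier of folate and flavin, was 0.34, 0.05, -0.02 and 0.36 with pioglitazone and 0.84, 1.00, 0.85 and 0.72 on high-fat diet, a decrease of -0.67 ± 0.09 (SE, adjusted p = 0.00177). It passed in all 8 fits with 1 array left out. Six4, a homeobox gene, fell by 0.85, the secreted protease inhibitor gene Wfdc1 by 0.92, the calmodulin-binding peptide gene Pcp4 by 0.70, the metalloprotease gene Adam12 by 0.62, Ccdc117 by 0.72 and Osgin2 by 0.46. 5430407P10Rik (now Proser2) fell by 1.32, and its second probe differed by -1.33. Gm2115 fell by 1.24 and shares its locus with a region probe on chromosome 7 that fell by 1.54.

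Just outside the threshold stood Tm7sf4 (adjusted p = 0.0533), which was well above background on 2 pioglitazone arrays and 0 high-fat arrays and has no measured fold, Nr5a2, a nuclear receptor gene of the exocrine pancreas, at 0.63 (adjusted p = 0.0585), Pip5k1c at -0.57 (adjusted p = 0.0533) and the purinergic receptor gene P2ry1 at -0.97 (adjusted p = 0.0585). Rgs2 and Tnfrsf11b at an adjusted p of 0.0478 were among those just inside it. A second probe for Pip5k1c went the other way, at 0.57, and was well above background on 2 pioglitazone arrays and 0 high-fat arrays. 

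The islet hormones did not pass in either direction. Ins1 differed by -0.03, Ins2 by -0.09, Gcg by 0.04, Sst by 0.10 and Ppy by -0.36. Among the pioglitazone islets, Ins2 was highest in mouse 1 (9.76), which had the lowest 75th percentile (217.9). It was lowest in mouse 3 (8.92), which had the highest (372.0). Gcg did likewise, at 9.78 and 9.09. In high-fat islets Gcg was instead lowest (9.11) where the percentile was lowest (265.2). Whether these bright probes could still register a change was not tested. Small differences in them therefore do not show unchanged hormone RNA. Of 32 measured beta-cell identity genes 0 passed, with a median of -0.05. Hnf4a, a transcription factor gene mutated in a form of monogenic diabetes, was 2.28 to 3.21 with pioglitazone and 1.84 to 2.22 on high-fat diet (difference 0.64, adjusted p = 0.288). Pdx1 differed by 0.30 (adjusted p = 0.427), and G6pc2, which returns glucose 6-phosphate to glucose in beta cells, by -0.38 (adjusted p = 0.395).

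Of 8 measured alpha-cell markers 0 passed, with a median of 0.42, and 4 had an unadjusted p under 0.05, all higher, where 4.66% of all genes were higher at that p. The transcription factor genes Irx1 and Irx2 differed by 0.95 (adjusted p = 0.299) and 0.91 (adjusted p = 0.172), with groups that overlapped. High-fat mouse 1 was the lowest array for Irx1 and Irx2, and without it the list's median was 0.31. Ttr and Dpp4 differed by -0.03 and 0.02, and Gcg by 0.04, with the limit given above for the hormone probes. Delta, PP and epsilon cell markers had 0 calls among 8 members, a median of 0.17, and Ghsr at 0.81, Rbp4 at 0.40 and Hhex at 0.40.

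Genes of the unfolded protein response, which expands the folding capacity of the endoplasmic reticulum, had mostly negative values. Of 40 measured members 0 passed and 38 had negative values, where 49.5% of all genes had positive values. An unadjusted p under 0.05 was met by 19 members, all lower, against 5.70% lower genes at that p in all. The list median was -0.23. The co-chaperone gene Dnajb9 was 4.18 to 4.96 with pioglitazone and 4.80 to 5.54 on high-fat diet (difference -0.50, adjusted p = 0.278). The coat protein gene Sec23b differed by -0.46 (adjusted p = 0.205), Edem2 by -0.42 (adjusted p = 0.315), and Manf, a secreted survival factor of stressed cells, by -0.34 (adjusted p = 0.302). The chaperone gene Hspa5 differed by -0.27 and Xbp1 by -0.07. Members of 1 list on the same arrays are not independent readings.

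The list mean was 3.94 to 4.24 with pioglitazone and 4.18 to 4.53 on high-fat diet, so the groups overlapped. Pioglitazone mouse 3 was the lowest array of its group and high-fat mouse 2 the highest. Without high-fat mouse 2 the number of members at an unadjusted p under 0.05 was 4, without pioglitazone mouse 3 it was 5, and over the 8 arrays left out in turn it was 4 to 21. The median stayed between -0.30 and -0.19.

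The other lists gave 0 calls. Medians were -0.15 for 18 circadian clock genes, of which Nfil3 at -0.44, Cry1 at -0.52, Cry2 at -0.34 and Arntl at -0.32 had an unadjusted p under 0.05, and -0.15 for 36 cell cycle genes, of which Ccnd2 at -0.40 and Ccnd1 and Cdkn2c at -0.29 each had such a p. The cell cycle median was -0.55 without pioglitazone mouse 3, with 14 members lower at that p, 0.09 without pioglitazone mouse 4 and 0.08 without pioglitazone mouse 1. Acinar markers had a median of 0.37 over 22 members, with list means of 3.84 to 5.05 with pioglitazone and 2.76 to 5.41 on high-fat diet. The acinar median was -0.15 without high-fat mouse 4, 0.78 without high-fat mouse 3, 0.77 without high-fat mouse 1, 0.02 without high-fat mouse 2, 0.15 without pioglitazone mouse 3 and 0.59 without pioglitazone mouse 1. Without the 3 arrays of high lymphocyte markers it was -0.54, with 22 of 22 values negative. Lymphocyte markers had a median of 0.94 over 19 members. The lymphocyte median was -0.08 without pioglitazone mouse 3. Ductal (0.08, 13 members), mesenchymal (-0.18, 16 members) and Schwann-cell markers (-0.24, 7 members) completed the set.

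**Figure D4:**
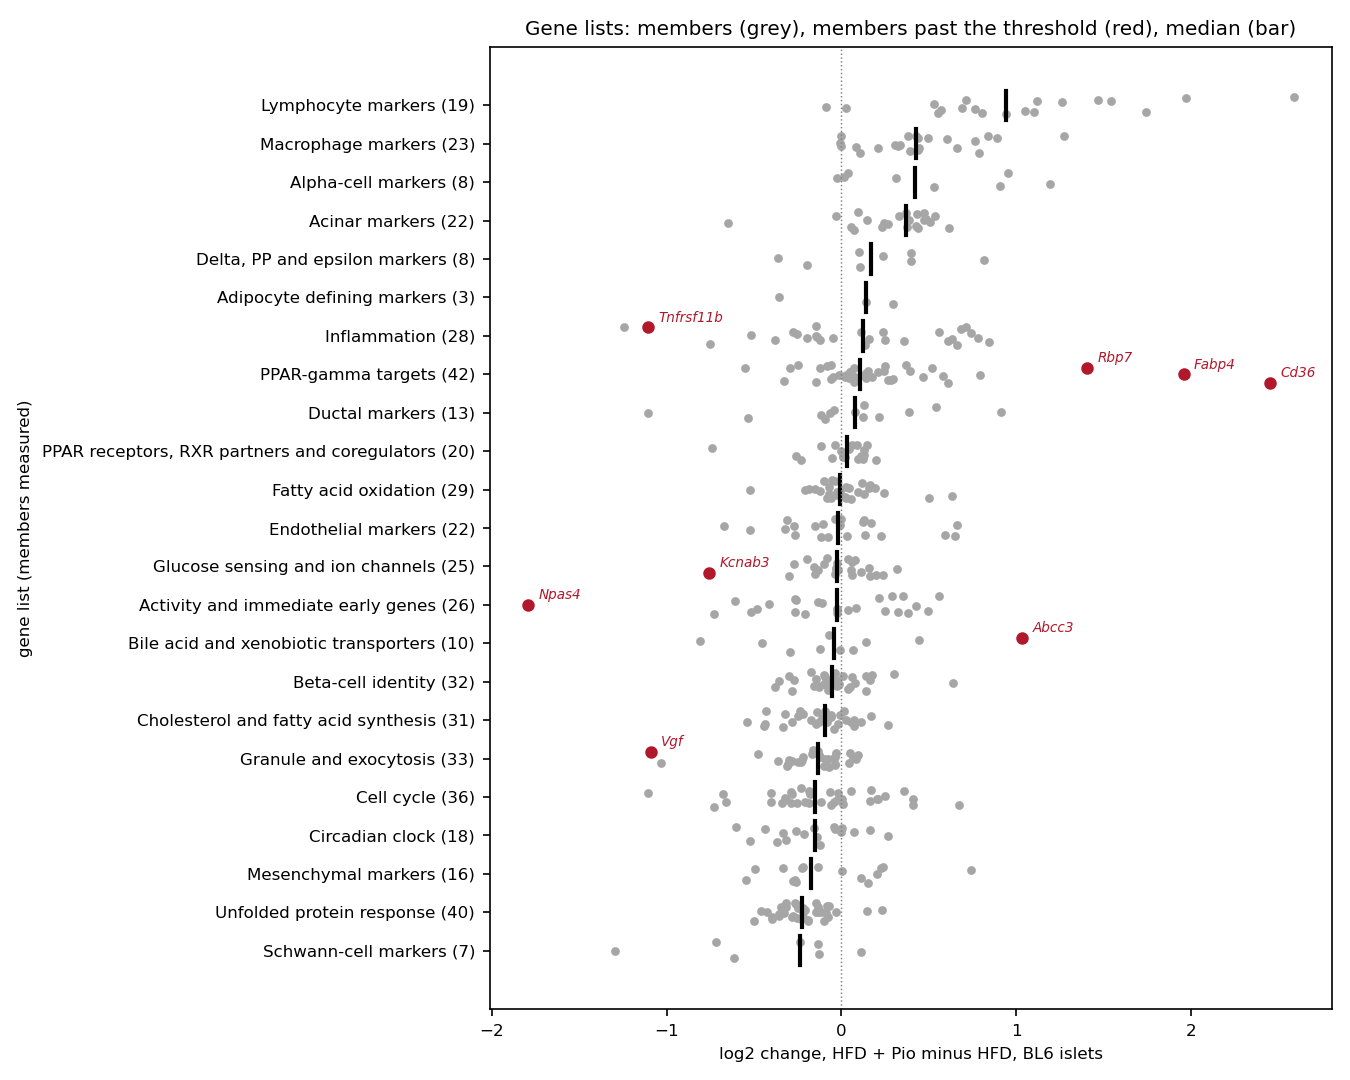
Log2 change with pioglitazone in BL6 islets (high-fat diet with pioglitazone minus high-fat diet) for each measured member of the 23 gene lists, in grey, with members past the threshold in red and named, and the list median as a bar. The 3 called lipid genes lie above the other PPAR-gamma targets, and the bar of the unfolded protein response is at -0.23 with its members close together.

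In BLKS islets, where both groups lay on slide 3, the same diets gave 1 call, Rbp7 (0.00435% of genes), while 627 genes were higher (2.73%) and 328 lower (1.43%) at an unadjusted p under 0.05. Its level there was 1.56, 1.39, 1.58 and 1.45 with pioglitazone and -0.10, -0.08, 0.27 and -0.04 on high-fat diet, an increase of 1.48 ± 0.19 (SE, adjusted p = 0.00362). Fabp4 was 3.43, 3.08, 3.43 and 3.38 with pioglitazone and 2.66, 2.48, 2.12 and 1.69 on high-fat diet, groups that did not overlap (difference 1.09 ± 0.23, SE, adjusted p = 0.0889). Cd36 was -0.62, -1.18, -1.24 and -0.53 with pioglitazone and -1.81, -2.16, -1.05 and -1.98 on high-fat diet, and high-fat mouse 3 lay above 2 of the pioglitazone islets (difference 0.86 ± 0.31, SE, adjusted p = 0.834).

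Whether the strains differ was tested on the difference itself, BL6 minus BLKS. It was 1.59 for Cd36 (95% interval 0.68 to 2.51, adjusted p = 0.265) and 0.87 for Fabp4 (0.19 to 1.54, adjusted p = 0.501), neither past the threshold over all genes. For Rbp7 it was -0.08 (-0.64 to 0.48, adjusted p = 0.955), an interval that leaves room for modest differences either way. Only A030001D16Rik, for which no exact size can be given because the BL6 pioglitazone arrays were not above background, and Lrtm2 (1.19) passed this test, each at an adjusted p of 0.0361 (0.00871% of genes), where 656 genes had a positive difference (2.86%) and 1057 a negative one (4.60%) at an unadjusted p under 0.05. In BLKS islets A030001D16Rik lay at -2.43 to -1.60 with pioglitazone and -2.30 to -1.77 on high-fat diet, and Lrtm2 at -0.61 to -0.04 with pioglitazone and -0.60 to -0.24 on high-fat diet.

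Npas4 differed by 0.09 there, Rgs2 by 0.15 and Vgf by -0.08, and the differences between strains were -1.88, -1.77 and -1.01 (adjusted p = 0.125, 0.229 and 0.298), none passing. Npas4 and Vgf were also at another level in BLKS islets. Npas4 lay at 3.23 to 3.71 with pioglitazone and 3.18 to 3.70 on high-fat diet, above all 8 BL6 arrays, and Vgf at 5.54 to 6.09 with pioglitazone and 5.40 to 6.30 on high-fat diet. Of the 44 genes called in BL6 islets, 23 had the same sign in BLKS islets, 16 of the 23 that rose and 7 of the 21 that fell, against 47.8% of all genes.

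**Figure D5:**
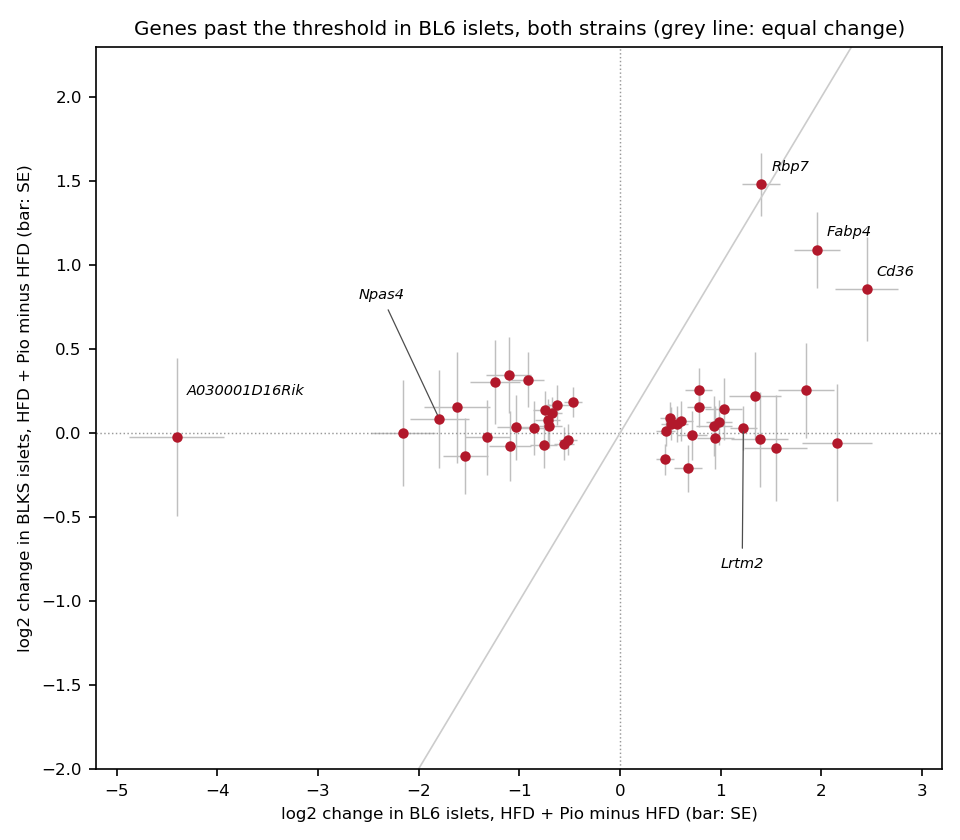
Log2 change with pioglitazone (high-fat diet with pioglitazone minus high-fat diet) in BL6 islets on the horizontal axis and in BLKS islets on the vertical axis for the 44 genes called in BL6 islets, with SE bars and a grey line of equal change. Rbp7, Fabp4 and Cd36 lie apart from the rest at 1.48, 1.09 and 0.86 in BLKS islets, and the other genes lie between -0.21 and 0.35 there.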

How the data were processed

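Islet RNA of 24 mice was measured on single-colour Agilent arrays annotated on mm9. Spot intensity values (gProcessedSignal) were background-subtracted by Agilent Feature Extraction 10.7.3.1, per the file headers. The authors also deposited a value table that holds a linear ratio per probe with a median of 1 on each array, and the step that made it is not given in the sources used here. It served as an alternative.

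Control spots and outlier-flagged spots (55 probes) were removed, replicate spots averaged, and each array's 75th percentile subtracted on the log2 scale. Of 55681 probes, 32750 were well above background on at least 4 of 24 arrays, and the brightest kept probe stood for each of 22968 genes. Group means of all 6 groups were fitted with limma 3.58.1 in R 4.3.3 (lmFit, eBayes) with Benjamini-Hochberg adjustment and a threshold of 0.05. An "at least" fold puts a group not above background at the lowest signal well above background on its arrays. The code was tested on simulated data. Genes named are those past the threshold, the nearest outside it, up to 4 members of smallest p in each list, the islet hormones and Pparg.

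The members, the 23 gene lists and the tests were chosen with earlier results of these data known. BC019489 and further list members, given as familiar genes of their pathway, were named after their values were seen. Some members of the lists are not reported here by name. Mouse numbers recur between groups, and no pairing by number is stated. Deviations of same-numbered mice from their group means had correlations of mixed sign, 0.48, 0.17, -0.41 and -0.64 in BL6 islets. Promoter sequences are RefSeq's on GRCm38.p6, and no position was converted between builds.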

Additional observations from a re-analysis of the deposited data

Results flagged for a closer look

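Single arrays stood apart from the other 3 of their group in 5 of 134 sets of values checked (3.73%), where chance sets apart about 1 in 20 (5%). In BL6 islets on high-fat diet with pioglitazone, mouse 3 had a mean of -0.20 over activity and immediate early genes, against -0.99 to -0.86 in the other mice of the group. The same mouse had a mean of -1.17 over inflammation genes (others -2.71 to -2.59) and of 1.91 over glucose-sensing and channel genes (others 2.26 to 2.33). In BL6 islets on high-fat diet, mouse 4 had a lymphocyte marker mean of 1.42 (others -3.39 to -3.17), and mouse 3 had a level of -1.15 for a called region probe on chromosome 11 (others -0.91 to -0.86).

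The effect of pioglitazone differed between strains for A030001D16Rik and Lrtm2 (BL6 minus BLKS, adjusted p = 0.0361 each, limma). The fitted difference was 1.19 for Lrtm2 and -4.38 for A030001D16Rik, where the second is no exact size because the BL6 pioglitazone arrays were above background on 0 of 4. The BL6 groups lay on different slides and the BLKS groups shared one, so strain and slide layout cannot be told apart here.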

How the results depend on the processing

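Against 44 genes called in BL6 islets, 68 were called with quantile normalization (44.1% of them higher, against 52.3%), 23 with no filter on dim probes, 21 with the authors' value table (38.1% higher), 0 with only the 8 arrays compared (1170 at an unadjusted p under 0.05) and 14 without the 3 arrays of high lymphocyte markers, an alternative chosen after seeing the data. With 1 array left out the count was 18 (without high-fat mouse 2) to 63 (without pioglitazone mouse 1). The other 10 alternatives gave 35 to 59. Against 1 gene in BLKS islets, the count was 3 with no filter, 4 with the authors' table, 6 with the acinar covariate, 6 with the robust prior and 1 to 52 with 1 array left out (52 without BLKS pioglitazone mouse 4). Against 2 genes for the strain difference, it was 0 with no filter, the lymphocyte covariate, the endothelial covariate or array weights (smallest adjusted p 0.0513 to 0.0727, limma, with 1658 to 1937 genes at an unadjusted p under 0.05), 1 with probes detected on all 24 arrays, the authors' table or the acinar covariate, and 0 to 22 with 1 array left out (22 without BLKS pioglitazone mouse 4). The cause of these shifts was not tested.

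Mouse number as a replicate block, although no pairing by number is stated, gave 24 genes in BL6 islets (20 of the 44), 15 in BLKS islets and 1 for the difference. None of the 44 called genes changed sign under these alternatives, whereas the medians of 15 of 23 gene lists did so with 1 array or the 3 lymphocyte-rich arrays left out. Of the gene-level values under the alternatives, 3010 kept their side of the threshold, 326 no longer passed and 67 newly passed. The median of delta, PP and epsilon markers was 0.50 without the 3 lymphocyte-rich arrays, against 0.17. Slide as a random block gave 52 genes (correlation -0.01). The BL6 groups lay on different slides, so this fit cannot show a slide effect that shifts a whole group.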
